A study of Mus musculus with 71 samples.

Results

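The genes described here are 10 members of the Nodal and BMP signalling pathways, Nodal, Gdf3, Tdgf1, Lefty1, Lefty2, Smad7, Bmp4, Id1, Id2 and Id3. They were chosen by name, with earlier results of these data known, from the 34010 RefSeq accessions of the RNA-seq tables. Each was represented by 1 accession. All 10 averaged 10 or more normalized counts and were tested among the 11113 accessions that did. The study examined how linker histone H1 affects the histone mark H3K27me3 in mouse embryonic stem cells (mESCs). WT cells were the R1 mESC line, and H1-TKO cells were the same line in which H1c, H1d and H1e, which encode linker histones, were knocked out together by CRISPR/Cas9 and grown from picked single-cell clones, so clonal differences and the knockout cannot be told apart. Both were cultured with LIF and serum. For each genotype there were 2 poly(A) RNA-seq libraries and 1 list of H3K27me3 peaks from ChIP-seq.

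The sample labels of all 4 RNA-seq libraries name the opposite genotype to the deposited tables. Libraries are therefore called WT-named and H1-TKO-named, after the tables, and every direction below would turn if the sample labels were right. The targeted genes were low in all libraries. H1f2 (H1c) read 11.6 and 56.7 normalized counts in the WT-named libraries and 18.7 and 7.4 in the H1-TKO-named libraries, so its groups overlapped. H1f3 (H1d) read 3.9 and 41.4 against 1.1 and 0.0, and H1f4 (H1e) 5.4 and 19.6 against 0.0 and 2.1. Both were lower in the H1-TKO-named libraries without overlap, but mostly through WT-named replicate 2. Counts this low, from 2 libraries per genotype, cannot decide between the table names and the sample labels. H1f3 was not called (limma adjusted p = 0.105), and H1f4 was too low to be tested. H1f5, which was not targeted, read 6.2 and 44.7 against 0.0 and 2.1 and was not called either (limma adjusted p = 0.0834). The recovered reads ranged from 6951619 to 10538507 per library. In WT-named replicate 2 a single accession without a symbol in the RefSeq table took 11.8% of the normalized counts, against 1.98% to 2.08% in the other 3. The WT-named libraries were at least 2-fold apart at 13.3% of the tested accessions and the H1-TKO-named libraries at 6.52%. The study describes the replicates as biologically independent, with 2 per genotype, and p-values measure the spread between these libraries.

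Most markers of mESCs were abundant in all 4 libraries. Their summed level over 10 genes was 28079 to 40287 normalized counts in the WT-named and 52544 to 52711 in the H1-TKO-named libraries. Of the 8 that were tested 4 were higher in the H1-TKO-named libraries and 0 were lower. Nanog, with 4 accessions, was listed at 0 throughout, and Esrrb, with 2 accessions, at no more than 3.3. The 4 neural markers summed to 898 to 2934 in the WT-named and 213 to 248 in the H1-TKO-named libraries, mostly through the intermediate filament gene Nes, while Pax6 and Neurog2 stayed below 21 normalized counts. The 6 fibroblast markers summed to 299 to 354 and 510 to 576, where Thy1 rose from a mean of 117 to 480 while Col1a1 fell from 172 to 43.9. The 6 primitive endoderm, 5 primitive streak and mesoderm, and 4 trophoblast markers summed to less than 89 in every library. The part of these shifts in the changes below was not tested, and in bulk RNA fewer cells of a type and less RNA per cell cannot be told apart.

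Nodal and Gdf3 are ligands of the TGF-beta superfamily that act through activin receptors, the co-receptor Tdgf1 (Cripto) and the transcription factors SMAD2, SMAD3, SMAD4 and FOXH1. Lefty1 and Lefty2 are secreted inhibitors of Nodal and are themselves induced by it, which makes them feedback inhibitors, and mESCs are known to have active Nodal signalling. BMP4 acts through SMAD1, SMAD5 and SMAD9 to induce the Id genes, whose products block basic helix-loop-helix factors, and serum and BMP sustain Id expression in mESCs grown with LIF. H3K27me3 is deposited by Polycomb repressive complex 2 and is associated with silent genes.

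Between the named genotypes 4 of the 10 genes were lower in the H1-TKO-named libraries and 0 were higher. The lower genes were Lefty1, Lefty2, Gdf3 and Tdgf1, all of the Nodal branch. Lefty1 and Lefty2 fell 5.37-fold and 4.39-fold, Gdf3 fell 2.09-fold and Tdgf1 fell 1.41-fold. Nodal itself, Smad7, Bmp4, Id1, Id2 and Id3 did not pass the test (limma on log2 of the normalized count plus 1, Benjamini-Hochberg adjusted p under 0.05 over all tested accessions). Over all 11113 accessions 10.7% were called lower, 9.84% higher and 20.5% in either direction. The median log2 change was -0.32 over the 10 genes and -0.03 over all tested accessions. Because the 10 genes were chosen with earlier results of these data known, the comparison with these shares is a description only.

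**Figure D1:**
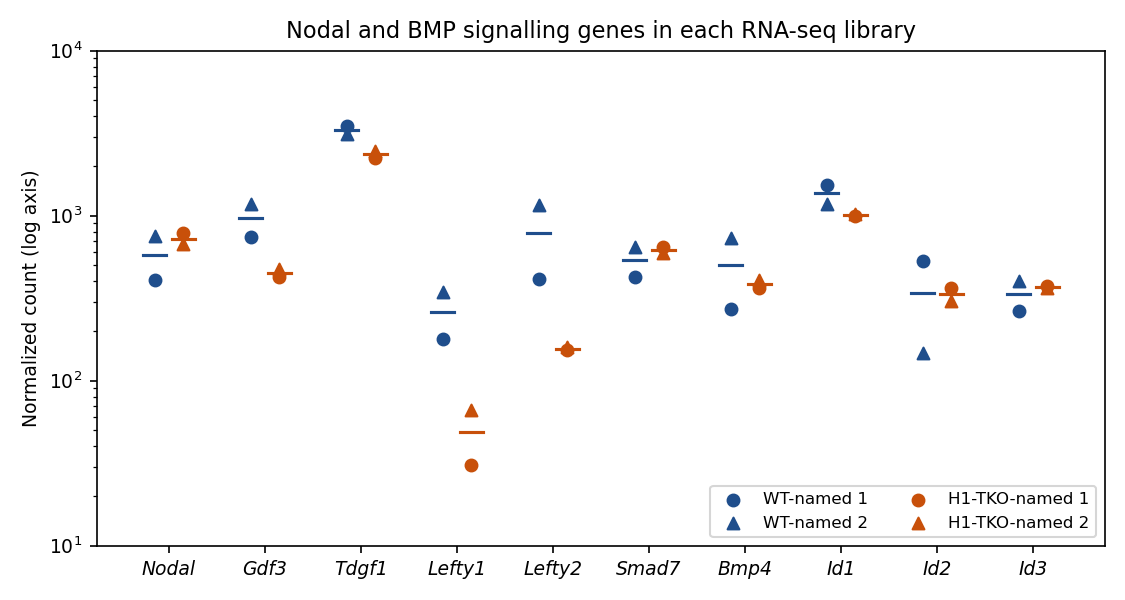
Normalized counts of the 10 genes on a log axis, with 1 point per library (circles, replicate 1; triangles, replicate 2) and a short line at the mean of each named genotype. Lefty1 lies between 30.9 and 66.4 in the H1-TKO-named libraries and between 179.2 and 342.5 in the WT-named libraries, while the H1-TKO-named points of Smad7, Bmp4, Id2 and Id3 lie between the WT-named points.

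Lefty1 (chr1:182865153-182868531 on NCBIM37, the mm9 assembly, plus strand) encodes a secreted antagonist of Nodal. It read 179.2 and 342.5 normalized counts in WT-named replicates 1 and 2, and 30.9 and 66.4 in H1-TKO-named replicates 1 and 2. Both H1-TKO-named libraries were below both WT-named libraries, although the replicates of each genotype were 1.91-fold and 2.15-fold apart. The counts rest on 231, 314, 28 and 63 reads in the same order. The log2 change was -2.43 with an SE of 0.46 (limma adjusted p = 0.0137, 2 libraries per genotype).

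Lefty2 (chr1:182823239-182829234, plus strand), the neighbouring antagonist with the same function, read 413.5 and 1154.0 in the WT-named libraries and 154.3 and 159.0 in the H1-TKO-named libraries. The groups did not overlap, the H1-TKO-named libraries nearly coincided, and the WT-named libraries were 2.79-fold apart. On the log2 scale the difference was -2.13 with an SE of 0.43 (limma adjusted p = 0.0160). It was -1.39 without WT-named replicate 2 and -2.87 without WT-named replicate 1, so the fold rests strongly on which WT-named library is used. Lefty1 gave -1.96 and -2.89 under the same omissions.

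Parts of the transcripts of both Lefty genes are alike. Over the stretch that aligned to the Lefty2 locus the Lefty1 transcript had 91.4% identity with it. Bases 325 to 1168 of the Lefty2 transcript had 96.8% identity with the Lefty1 locus. Of the 100-base windows, 4.80% of those of Lefty1 and 3.07% of those of Lefty2 were identical in the other gene. The last part of the longest Lefty2 transcript, from about base 1488 of 2473, aligned to 24 other places in the genome at lower identity. Some reads from the shared stretches may not have been assigned to a gene. This was not tested, and the split between the genes is uncertain to that extent.

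Both genes lie on chromosome 1, whose accessions moved the other way. The median log2 change of its 628 tested accessions was 0.49, which is 0.52 above the median of all accessions, with 29.9% called higher and 4.30% lower. The Lefty1 change was exceeded downward by 0.478% of the tested accessions of chromosome 1 and 1.67% of all tested accessions, and the Lefty2 change by 0.796% and 2.36%. With each library centred on the median of the gene's own chromosome, the log2 changes were -2.83 for Lefty1 (limma adjusted p = 0.0117) and -2.54 for Lefty2 (0.0153), and the 4 calls stood.

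**Figure D2:**
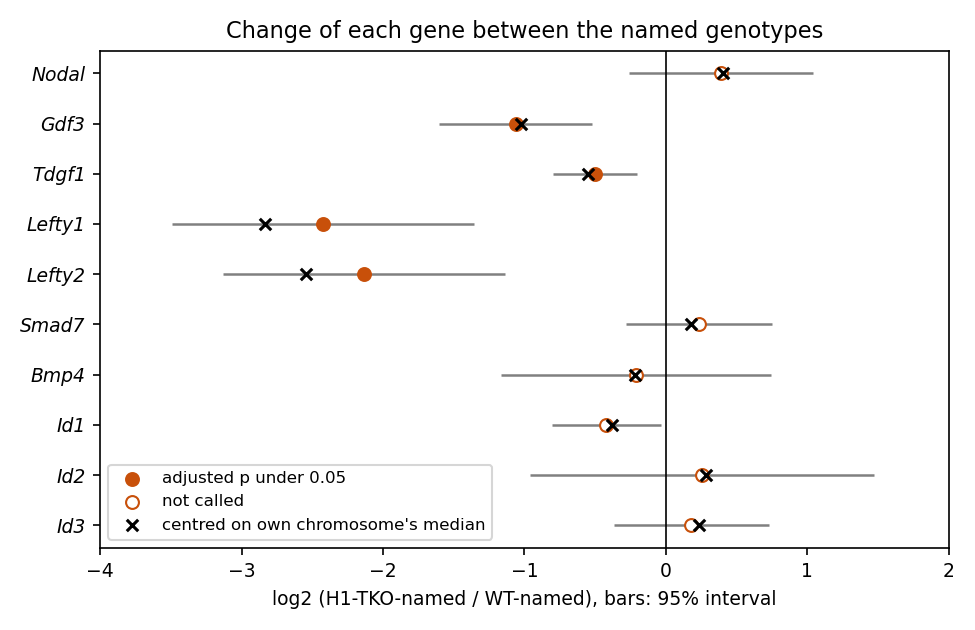
The log2 ratio of H1-TKO-named to WT-named libraries for each gene (circles, filled where called) with its 95% interval from limma, and the value after centring on the gene's own chromosome (crosses). Lefty1 and Lefty2 move further from 0 on centring, from -2.43 to -2.83 and from -2.13 to -2.54, and the other 8 genes stay close to their circles.

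H3K27me3 peaks near the 10 genes were read from 6957 peaks of WT and 6262 of H1-TKO, with 1 list per genotype and hence no test. The peak score of MACS grows with the negative log10 of its p-value, and the lowest in the WT list was 50.01. Peaks lay within 2 kb of a start of 2 genes in the WT list (Id2 and Id3) and of 2 others in the H1-TKO list (Lefty1 and Lefty2). The other 6 genes had none in either list. Of 22367 protein-coding genes 14.3% had such a peak in the WT list and 13.0% in the H1-TKO list, 3.63% in the WT list alone and 2.34% in the H1-TKO list alone, and on chromosome 1 the last share was 3.15%. Unlike for RNA-seq, sample labels and file names name the same genotype for the ChIP-seq lists.

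At Lefty1 the H1-TKO list held 2 adjoining peaks over the start and first intron. The first, chr1:182865107-182865741 with a score of 84.72, ran from 46 bp before the start to 588 bp past it and covered 88 bp of untranslated exon, 250 bp of coding sequence and 251 bp of intron. The second, chr1:182865743-182866673, had a score of 125.88, above 76.2% of the peaks of its list, and was wholly intronic. In the WT list the nearest peak lay 2.53 kb past the end of the gene, with a score of 100.65, where the H1-TKO list held peaks with scores of 171.84 and 193.60.

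At Lefty2 the H1-TKO list held weaker peaks. They were chr1:182823684-182824169, with a score of 55.69, and chr1:182825299-182825646, with 73.74, both in introns. The first started 445 bp past the gene's 5′ end. The second started 2060 bp past it and counted by its nearness to the start of a shorter transcript. The nearest WT peak was 41.8 kb from Lefty2. Thus the RNA of both genes was lower in the H1-TKO-named libraries and a peak was listed in H1-TKO alone. Within 2 kb of a start and with scores of at least 100, only the second Lefty1 peak was left in the H1-TKO list, and Lefty2 had none.

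The central 200 bases of the strongest peak at each of the 4 genes are shown, since Polycomb targets are typically rich in CpG. They are read from NCBIM37 on the strand of the gene, with each CpG in capitals. The windows are chr1:182866108-182866307 at Lefty1, chr1:182825373-182825572 at Lefty2, chr12:25779685-25779884 at Id2 and chr4:135700321-135700520 at Id3. All lie in introns of the protein-coding transcripts, and the Id3 window is also part of a retained-intron transcript.
Lefty1, H1-TKO list: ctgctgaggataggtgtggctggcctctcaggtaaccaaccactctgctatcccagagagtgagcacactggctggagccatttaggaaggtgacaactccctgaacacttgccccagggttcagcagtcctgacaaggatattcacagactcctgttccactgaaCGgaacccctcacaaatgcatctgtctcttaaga
Lefty2, H1-TKO list: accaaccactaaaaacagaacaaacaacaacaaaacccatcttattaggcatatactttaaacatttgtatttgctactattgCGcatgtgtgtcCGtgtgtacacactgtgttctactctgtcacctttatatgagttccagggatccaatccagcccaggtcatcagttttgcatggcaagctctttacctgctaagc
Id2, WT list: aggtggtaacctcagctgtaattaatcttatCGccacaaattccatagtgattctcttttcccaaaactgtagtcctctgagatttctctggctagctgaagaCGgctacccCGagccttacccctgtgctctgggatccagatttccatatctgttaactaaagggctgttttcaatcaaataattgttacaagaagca
Id3, WT list: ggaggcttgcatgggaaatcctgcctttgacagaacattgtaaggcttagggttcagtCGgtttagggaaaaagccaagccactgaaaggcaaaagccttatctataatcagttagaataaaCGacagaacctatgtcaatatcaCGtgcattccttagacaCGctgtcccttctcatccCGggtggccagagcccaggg

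The Lefty windows held fewer CpGs than the median window of their list. Lefty1 had 1, and 92.7% of the equally long central windows of the H1-TKO list had at least as many. Lefty2 had 2 (81.1% had at least as many), Id2 had 3 (71.4% in the WT list) and Id3 had 5 (51.1%), where the medians were 4 CpGs in the H1-TKO list and 5 in the WT list. On both strands, the FOXH1 motif AATNCACA was in none of the 4 windows and in 3.17% of H1-TKO and 3.43% of WT windows. The SMAD3 and SMAD4 motif CAGAC was in the Lefty1 window alone, and in 39.0% and 38.7% of all windows. The SMAD1 and SMAD5 motif GGCGCC was in none, and in 7.84% and 7.45% of all windows. Counts over the whole peaks were as follows, with no test. The Id2 peak held 20 CpGs in 776 bp and the Id3 peak 31 in 628 bp, against 5 in 931 bp at Lefty1 and 2 in 348 bp at Lefty2. The Id2 and Id3 peaks held GGCGCC 2 times each and CAGAC 2 and 3 times, the Lefty1 peak held CAGAC 2 times and GGCGCC 0 times, and the Lefty2 peak held neither. A match of AATNCACA can share its last letters with one of CAGAC.

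Tdgf1 (chr9:110842114-110848662, minus strand) encodes the membrane-anchored co-receptor that Nodal and GDF3 need to bind their receptors. It read 3502.8 and 3141.4 in the WT-named libraries and 2227.8 and 2474.0 in the H1-TKO-named libraries. The groups did not overlap, and replicates were within 1.12-fold of each other. The fitted log2 change was -0.50 with an SE of 0.13 (limma adjusted p = 0.0336). This is the least stable of the 4 calls. The adjusted p was 0.0535 after quantile normalization, 0.0592 and 0.0679 with the looser expression filters, and 0.393 and 0.228 without H1-TKO-named replicate 1 or 2. A stretch of chromosome 16 matched 96.5% of the Tdgf1 transcript at 94.99% identity, and 2 further places matched parts of it, so some of its reads may not have been assigned uniquely. The nearest H3K27me3 peaks were 194 kb away in the WT list and 66.7 kb away in the H1-TKO list.

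Among the 3 ligands of the 10 genes, Nodal, Gdf3 and Bmp4, only Gdf3 was called. Gdf3 (chr6:122555421-122560105, minus strand) encodes a ligand that uses the same co-receptor as Nodal. It read 746.3 and 1183.5 in the WT-named and 425.3 and 475.0 in the H1-TKO-named libraries, again without overlap. Its log2 ratio was -1.06 with an SE of 0.23 (limma adjusted p = 0.0210). The adjusted p rose to 0.0884 without H1-TKO-named replicate 1, 0.0503 without H1-TKO-named replicate 2 and 0.0501 with no expression filter. The nearest WT peak was 8.63 kb from the gene, with a score of 65.09, and the nearest H1-TKO peak was 102 kb away.

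Nodal (chr10:60880720-60888086, plus strand) read 408.1 and 750.4 in the WT-named libraries and 781.2 and 673.0 in the H1-TKO-named libraries. WT-named replicate 2 lay between the H1-TKO-named libraries, so the groups overlapped. The log2 change was 0.39 with a 95% interval of -0.26 to 1.04 (limma adjusted p = 0.344). It was 0.83 without WT-named replicate 2 and -0.05 without WT-named replicate 1. The nearest peaks were 104 kb away in the WT list and 169 kb away in the H1-TKO list. The ligand's own RNA thus gave no call while that of its antagonists was lower.

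Smad7, an intracellular inhibitor that binds activated type I receptors of both branches, read 426.7 and 647.9 in the WT-named and 645.7 and 594.0 in the H1-TKO-named libraries. Both H1-TKO-named values lay between the WT-named values. On the log2 scale the difference was 0.24 with a 95% interval of -0.28 to 0.75 (limma adjusted p = 0.471), and -0.07 without WT-named replicate 1. No peak lay within 299 kb in either list.

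Of the 4 BMP-side genes among the 10, Bmp4, Id1, Id2 and Id3, none was called. Bmp4 (chr14:47003195-47010344, minus strand), the ligand of this branch, read 273.1 and 729.7 in the WT-named libraries and 366.9 and 405.5 in the H1-TKO-named libraries. The WT-named libraries were 2.67-fold apart and enclosed both H1-TKO-named values. The fitted log2 change was -0.21 with a 95% interval of -1.16 to 0.74 (limma adjusted p = 0.734), and it was 0.50 without WT-named replicate 2 and -0.92 without WT-named replicate 1.

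Id1 (chr2:152561987-152563146, plus strand), a direct target of BMP-activated SMADs and the most abundant of the 3 Id genes, read 1544.6 and 1185.7 in the WT-named and 999.3 and 1023.7 in the H1-TKO-named libraries. These groups did not overlap, yet the difference did not pass the adjusted test. Its log2 ratio was -0.42 with a 95% interval of -0.80 to -0.04 (limma adjusted p = 0.107).

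Id2 (chr12:25778666-25780957, minus strand) varied more between WT-named replicates than any other of the 10 genes, by 3.59-fold. It read 529.1 and 147.3 in the WT-named libraries and 364.7 and 305.4 in the H1-TKO-named libraries. The log2 change was 0.26 with a 95% interval of -0.96 to 1.47 (limma adjusted p = 0.747). It was -0.66 without WT-named replicate 2 and 1.18 without WT-named replicate 1, so no direction can be given. The X chromosome holds a match to 91.6% of its transcript at 83.9% identity.

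The WT list had a peak in Id2 at chr12:25779397-25780172, with a score of 106.74, which covered 45 bp of untranslated exon and 731 bp of intron. A second WT peak, with a score of 97.07, lay 4.09 kb upstream of the start. The nearest peak of the H1-TKO list was 107 kb away. Here a peak was listed in WT alone beside RNA levels whose groups overlapped, unlike at the Lefty genes.

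Id3 (chr4:135699412-135701670, plus strand) read 264.6 and 402.5 in the WT-named libraries and 373.5 and 366.5 in the H1-TKO-named libraries. The H1-TKO-named values lay between the WT-named values. On the log2 scale the difference was 0.18 with a 95% interval of -0.37 to 0.73 (limma adjusted p = 0.608), and -0.12 without WT-named replicate 1. The WT list had a peak at chr4:135700107-135700734, with a score of 86.90, in which 545 bp were intron, 57 bp coding and 26 bp untranslated exon. The nearest H1-TKO peak was 143 kb away.

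Compared per length, in normalized counts per kb of the longest coding transcript, Tdgf1 stood highest in the WT-named libraries at a mean level of 1726, followed by Id1 at 1177. Their ranges overlapped neither each other nor that of Gdf3, the third at 454. From Gdf3 downward the ranges of neighbours overlapped, through Lefty2 at 317, Nodal at 276, Id2 at 266, Id3 at 261, Bmp4 at 243, Lefty1 at 161 and Smad7 at 126. In the H1-TKO-named libraries Tdgf1 and Id1 again led at 1221 and 872 per kb, and the Lefty genes were last, at 63.3 for Lefty2 and 30.03 for Lefty1. Of the 10 genes 7 were higher in WT-named replicate 2 than in replicate 1, and the exceptions were Tdgf1, Id1 and Id2.

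The other genes of both pathways were taken from lists of 86 genes by role, of which 38 were tested, 4 were lower and 3 higher in the H1-TKO-named libraries. The 4 lower genes were all among the 21 tested genes of the Nodal lists, which had 0 higher, and the 3 higher genes were among the 17 tested genes of the BMP lists, which had 0 lower. In percent, 10.5% of the 38 were lower and 7.89% higher, close to the shares over all accessions, and their median log2 change was 0.02. A difference between the branches was not tested, and the lists too were chosen with earlier results of these data known. Of the 48 genes left untested 29 had several accessions. Among them were Furin and Pcsk6, the convertases of Nodal, which were listed at 0 and at no more than 1.1, and whether the counting of shared reads set these values was not tested.

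Among the Nodal and TGF-beta ligands 2 of 4 tested genes were lower. Inhbb, an activin subunit, read 132.7 and 349.0 in the WT-named and 44.1 and 40.0 in the H1-TKO-named libraries, a log2 change of -2.33 with an SE of 0.46 (limma adjusted p = 0.0153). Tgfb2 read 111.7, 30.5, 13.2 and 7.4 in the same order, a log2 change of -2.45 with an SE of 0.70 (limma adjusted p = 0.0468). Without WT-named replicate 1 or 2 the log2 change was -3.03 or -1.64 for Inhbb and -1.53 or -3.37 for Tgfb2, so the folds of both rest strongly on which WT-named library is used. Both lie on chromosome 1, like the Lefty genes. Tgfb1, with the highest mean of the list, read 189.3 and 361.0 against 477.1 and 417.1 and was not called (limma adjusted p = 0.111).

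None of the 6 tested receptors and co-receptors was called, and the type I receptor gene Acvr1b, with the highest mean over the 4 libraries, read 549.3, 478.8, 470.5 and 491.9. Among the effectors Foxh1, the DNA-binding partner of SMAD2 and SMAD3 at Nodal targets, was lower. It read 518.2 and 690.5 in the WT-named and 271.0 and 270.7 in the H1-TKO-named libraries, a log2 change of -1.14 with an SE of 0.20 (limma adjusted p = 0.0109). Smad4, the shared SMAD, read 1308.0, 1137.7, 1283.6 and 1162.8 with a log2 change of 0.00 and a limma adjusted p of 0.993.

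Among 6 tested inhibitors Ski, a SMAD co-repressor, was lower. It read 1526.0 and 1620.9 against 986.1 and 1022.7, a log2 change of -0.65 with an SE of 0.13 (limma adjusted p = 0.0163), and a weak H1-TKO peak with a score of 53.86 lay within 2 kb of its start where the WT list had none. The phosphatase gene Ppm1a had the highest mean of this list and was not called (limma adjusted p = 0.611). Of 9 germ-layer targets of Nodal only T and Mixl1 were expressed enough for testing, T at 10.1 to 22.0 normalized counts, and neither was called.

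In the BMP lists the higher genes were a ligand and a pair of targets. Bmp7 read 98.5 and 48.0 in the WT-named and 306.3 and 304.4 in the H1-TKO-named libraries, a log2 change of 2.13 with an SE of 0.36 (limma adjusted p = 0.00986). Id4, the fourth Id gene, read 34.1 and 53.4 against 123.4 and 99.0, a log2 change of 1.35 with an SE of 0.36 (limma adjusted p = 0.0390). Hey1, a transcription factor gene, read 40.3 and 41.4 against 101.4 and 99.0, a log2 change of 1.27 with an SE of 0.32 (limma adjusted p = 0.0324). With a filter of a mean of at least 1 or with no filter, the adjusted p of Id4 was 0.0679 or 0.0742 and that of Hey1 0.0539 or 0.0603, so that of the 3 higher genes 1, Bmp7, was still called.

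None of the receptors, effectors or inhibitors of BMP was called, with 2, 2 and 5 tested. The genes with the highest mean in these lists were Bmpr1a, a type I receptor, with a limma adjusted p of 0.929, Smad1 with 0.235 and the extracellular modulator Twsg1 with 0.141. The ID partners, genes of E proteins that ID proteins bind, were untested, and the highest, Tcf4, read 1.1 to 8.5. Each had several accessions (Tcf3 8, Tcf4 2 and Tcf12 5). Whether the counting of shared reads set these low values was not tested, so they do not show that the genes were silent. Leaving out H1-TKO-named replicate 1 or 2 ended the calls of Tgfb2, Foxh1, Ski, Id4 and Hey1, leaving out WT-named replicate 1 also ended that of Tgfb2, with an adjusted p of 0.0866, and those of Inhbb and Bmp7 passed each omission.

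**Figure D3:**
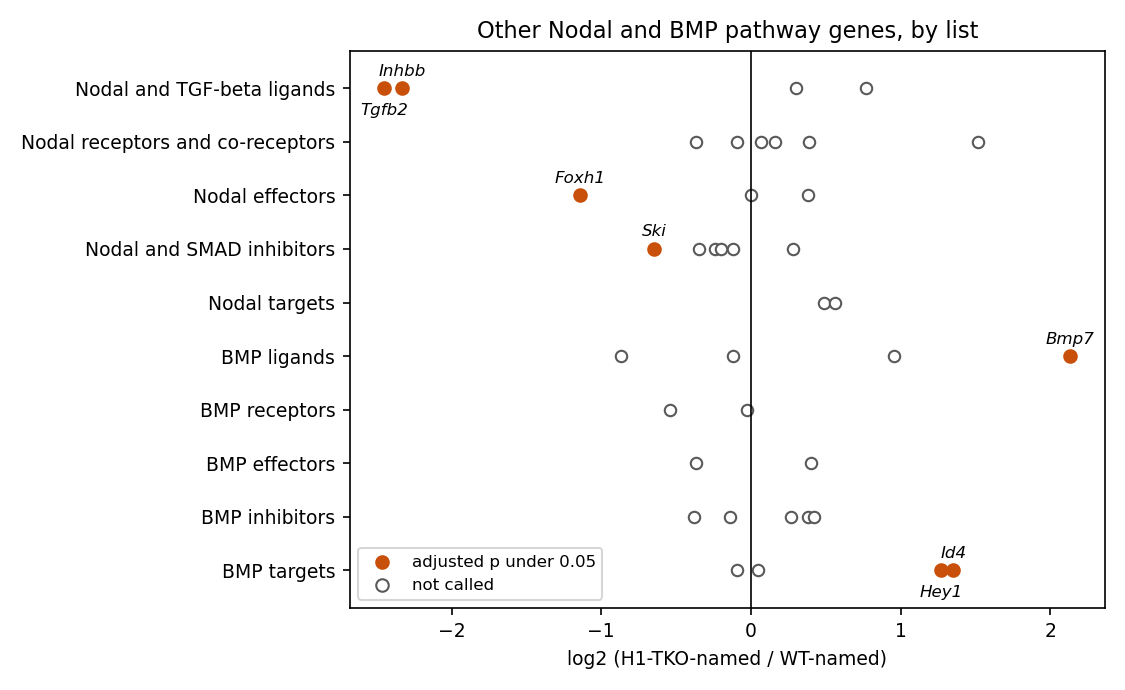
The log2 ratio of H1-TKO-named to WT-named libraries for the 38 tested genes of the pathway lists, 1 point per gene and 1 line per list (filled where called). The called genes of the Nodal lists, Inhbb, Tgfb2, Foxh1 and Ski, lie below 0, and those of the BMP lists, Bmp7, Id4 and Hey1, lie above 0.

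Many of the pathway genes carried H3K27me3 peaks in both genotypes. Within 2 kb of a start 37 of the 86 genes had a WT peak and 35 an H1-TKO peak, and 32 had both, which is 86.5% of the former and 91.4% of the latter. Over all protein-coding genes 14.3% and 13.0% had a peak in these lists. The BMP ligands had peaks at 8 of 12 genes in both lists. Over all protein-coding genes 74.7% of those with a WT peak also had an H1-TKO peak, and 82.1% of those with an H1-TKO peak also had a WT peak. Of the 10 genes described first none had a peak within 2 kb of a start in both lists, while within 5 kb Lefty1 did. There was 1 list per genotype, so none of these shares was tested.

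Promoters of 5 of the 10 genes (Tdgf1, Nodal, Bmp4, Id2 and Id3) were in the RefSeq promoter table on GRCm38.p6. In the 250 bases before the start, CAGAC was found once in Tdgf1 and 2 times in Id3, GGCGCC once in Id2, and AATNCACA in none. Over 32851 promoters 42.2%, 9.59% and 3.18% held these motifs. Id2 and Id3 had 18 CpGs each, Bmp4 11, Tdgf1 7 and Nodal 3, against a median of 6.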

How the data were processed

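For RNA-seq, the authors used Subread and mm9 for mapping, featureCounts for counting and DESeq2 size factors for scaling. The deposited signal is the resulting normalized count per RefSeq accession, and all values (100%) were whole multiples of 1 read within a relative tolerance of 0.001. H3K27me3 reads were aligned to mm9 with Bowtie2, and the deposited score of each peak is that of MACS. Peaks were called on replicate 1 of each genotype.

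The 10 genes, the pathway lists and the markers were chosen with earlier results of these data known. Genotypes follow the names of the deposited tables, since the sample labels give the reverse. Symbols came from a RefSeq table of GRCm38.p6 (33650 of 34010 accessions), and positions from GENCODE M1 on NCBIM37. Each gene was represented by its accession with the highest mean. Accessions with a mean of at least 10 (11113) were tested with limma 3.58.1 (eBayes with trend, R 4.3.3) on log2(normalized count + 1), so that changes of low genes are understated, with Benjamini-Hochberg adjustment and no block. On simulated data with 2 libraries per genotype (log2 change 2, dispersion 0.05, 11091 genes), 187 of 200 changed genes were recovered with 7 false calls. The simulation gave both genotypes the same dispersion, whereas the WT-named libraries varied more, and it held no smaller changes. It therefore gives no error rate for the calls reported here. Alternatives were edgeR 4.0.16 and DESeq2 1.42.0 on the recovered reads, other pseudocounts, filters and normalizations, and omission of each library. Transcript copies were sought with minimap2. The text names the 10 genes, the called genes without overlap and the most abundant gene of each list, the targeted genes, and the 2 accessions nearest each gene in profile. Deposited signal and score carry the counting error of single libraries. Other experiments of the series were not analysed here.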

Additional observations from a re-analysis of the deposited data

How the results depend on the processing

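Of the 10 genes 4 were called, and 4 were also called with a pseudocount of 0.5 or 5, by edgeR, by DESeq2, after centring on the own chromosome and with the replicate block. Counts were 3 with a filter of a mean of at least 1 and after quantile normalization, 2 with no filter and 0 in a linear model without moderation, which called none of all tested accessions and gave 1 of the 10 genes an unadjusted p under 0.05. Leaving out each library in turn gave 2 to 10 called genes. It was 2 without H1-TKO replicate 1 or 2 (Lefty1 and Lefty2), 6 without WT replicate 1 and 10 without WT replicate 2. In the last 2 fits the lone WT-named library is assumed to vary like the closely agreeing H1-TKO-named libraries, and 49.2% and 44.5% of all accessions were called, against 5.43% and 5.26% when an H1-TKO-named library was left out. Of the pathway genes 7 were called, 4 with either looser filter (3 lower and 1 higher, with Tgfb2, Id4 and Hey1 lost), 0 without moderation, 9 with the replicate block and 2 to 16 on leaving out each library. On the log2 scale, leaving out each library gave -0.050 to 0.83 for Nodal, -0.065 to 0.54 for Smad7, -0.12 to 0.48 for Id3, -0.66 to 1.18 for Id2 and -0.92 to 0.50 for Bmp4. The direction turned without WT replicate 1 for the first 3 and without WT replicate 2 for Id2 and Bmp4, and Id2 was also at -0.0038 with edgeR. The replicate block cannot change a log2 difference in this balanced design, so Lefty1 is at -2.43 in both fits. With the block 29.7% of all accessions were called, against 20.5% in the main fit. The deviations of same-numbered libraries had a correlation of 0.011 over the tested accessions. That value cannot show whether same-numbered libraries were prepared together. With scores of at least 100 the members with a peak were 1 in the WT list (Id2) and 1 in the H1-TKO list (Lefty1). The other windows gave 2 in each list, except 3 in the WT list within 5 kb, where Lefty1 was added. The causes of these changes were not tested. Lefty1 rests on 28 to 314 reads per library.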

Other observations

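The tested genes whose centred log2 profiles over the 4 libraries were closest to each of the 10 genes are given by Euclidean distance, as a description over 4 libraries. Nearest to Lefty1 were AY358078 (0.287) and Zfp992 (0.390), and to Lefty2 Xlr3b (0.190) and Xpo1 (0.230). Gdf3 was closest to Coil (0.0547) and Hspa1b (0.0747), and Tdgf1 to Supt20 (0.0299) and Tspyl3 (0.0387). For Nodal they were Aspa (0.0863) and Zyg11a (0.0923), for Smad7 Nsmce3 (0.0401) and Hnrnpa0 (0.0405), and for Bmp4 Piwil2 (0.104) and Ssc4d (0.106). Id1 was nearest to Usp24 (0.0289) and Ccdc88c (0.0300), Id2 to Glrx3 (0.114) and Hsd17b1 (0.145), and Id3 to Dtymk (0.0260) and Alkbh4 (0.0291). No gene of the pathway lists was among them, nor was any other of the 10 genes, so that Lefty1 and Lefty2 were not each other's nearest genes.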
